A study of Mus musculus with 9 samples.

Results

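Fresh BFU-E from mouse fetal liver were compared with BFU-E that had been taken by the same low-CD71 gate and then kept for 8 h in culture. BFU-E (burst-forming unit-erythroid) are early progenitors that are committed to the red cell line and still divide many times. The series held 9 RNA-seq libraries, and the comparison rests on 2 of them. Each is the only library of its condition, so no difference below has a replicate check and no test was made. Genes were compared where they reached 1 or more RPKM (reads per kilobase of a transcript, scaled to a library of fixed size) in either library, which kept 10108 of 19840 gene names. Both libraries came from C57BL/6 embryos at embryonic day 13.5 to 14.5. By the labels' protocols, both were sorted as the 10% of Kit-positive cells with the least CD71, after cells with Ter119, CD34, CD41, B220, CD3, Mac-1, Gr-1 or CD16/32 had been gated out. RNA of the fresh library was made from such cells with no culture. The cultured cells spent 4 h in serum-free StemSpan medium with 100 ng/mL mouse stem cell factor, 40 ng/mL mouse IGF-1 and 2 U/mL human erythropoietin (EPO). They were then divided, water was added to the cells used here and 100 nM dexamethasone (Dex) to the others, and both were kept for another 4 h. No library of cells cultured without these factors was analysed here, so the factors, the medium, the handling and the time in culture cannot be told apart. The sort or day of the fresh cells and that of the cultured cells likewise cannot be told apart from culture, and the number of embryos pooled is not given in the sources used here.

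BFU-E need stem cell factor, which binds the receptor Kit, and as they mature to CFU-E (colony-forming unit-erythroid) they come to depend on EPO, whose receptor acts through the kinase JAK2 and the transcription factor STAT5. Animal cells keep their cholesterol constant through a feedback loop: when membranes of the endoplasmic reticulum are low in sterol, SREBP transcription factors are released and turn on the genes of cholesterol synthesis and uptake, while the LXR receptors, which sense oxysterols, turn on genes of cholesterol export. Immediate early genes such as Fos and Jun respond to stimuli within minutes and are known to be switched on by tissue dissociation as well as by growth factors. Glucocorticoids slow the maturation of BFU-E and favour their self-renewal, and Dex is used in culture for that reason.

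Levels below are RPKM after division by 1 scaling factor a library (1.06 for fresh, 1.02 for cultured). A difference is the log2 of the cultured level plus 1 minus the log2 of the fresh level plus 1, and a gene is called higher or lower where that difference is 1 or more (2-fold) in either direction. The added 1 makes the difference smaller than the true ratio for genes at low levels. Ratios are cultured over fresh without the added 1, with exact 95% intervals from recovered reads that cover counting error only. The recovered depth was 18.4 M (mega) reads for fresh and 11.8 M for cultured BFU-E, and 3 reads on a transcript of 1 kb were worth 0.163 and 0.254 RPKM. Since RNA was taken from bulk cells, fewer cells of a type and less RNA per cell cannot be told apart. For context, levels are also given for the Dex arm of the same cultured cells, for the water arm of a separate culture whose cells had been sorted by low CD71 and low CD24a, and for fresh CFU-E. The Dex arm was split from the same cells as the water arm and is not a repeat of the culture.

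The cultured library stood apart from the other cultured BFU-E in a set of genes. In 27 genes its level was 4-fold or more above each of the 5 other cultured libraries, on the same scale, and 0 genes lay 4-fold below all 5. Of the 27 genes, 23 share 10% or more of their transcript sequence with other genes or pseudogenes, 3 had no matched sequence and 1 was unshared. The unshared gene was Ube2s, a ubiquitin-conjugating enzyme of mitosis, at 10.02 in fresh and 113 in cultured BFU-E, against 6.49 to 13.4 in the other cultured libraries. The ribosomal protein gene Rpl5 (94.8% shared) was 1.58 and 134, against 8.47 to 23.9 in the others. The glycolysis gene Pgam1 (41.97% shared) was 4.43 and 49.97, against 3.55 to 7.16. Over all genes compared, 13.3% of the 2421 shared genes were higher in the cultured library and 5.91% lower, while 3.77% of 7454 unshared genes were higher and 10.0% lower. The other cultured libraries also had a larger share of higher genes among shared than among unshared genes when set against the same fresh library, at 6.48% and 2.56% in the Dex arm and 15.4% and 9.28% in the separate water culture. How the reads of near-identical genes were assigned is not given in the sources used here. Counts are therefore also given for unshared genes, and a gene whose shared part is 10% or more is named as uncertain with that percentage.

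In all, 631 genes were 2-fold higher in the cultured library, which is 6.24% of the 10108 compared, and 911 were 2-fold lower, which is 9.01%. Either way 15.3% differed, and the median difference over all genes was -0.08. Of the genes that differed, 40.9% were higher. Among unshared genes 281 were higher (3.77%) and 748 lower (10.0%), so that 27.3% of those that differed were higher, and the median was -0.14. Without the 27 genes in which the library stood apart, 604 were higher and 911 lower. Differences of 4-fold or more were found for 139 genes upward and 83 downward, and of 8-fold or more for 45 and 10. The whole counting interval lay past 2-fold for 524 of the higher and 724 of the lower genes. Lower calls were most frequent at low levels: of 2740 genes with a mean under 5 RPKM 14.4% were lower and 5.95% higher, while of 546 genes at 100 or more 4.40% were lower and 11.2% higher. The filter let in 609 genes through the fresh library alone, which could not be called higher, and 289 through the cultured library alone. At its edge Ptpdc1 (1.001 and 0.524 RPKM as deposited) and P2rx7 (1.001 and 0) were just inside, and Meis3 (0.9996 and 0.376) and Ptges3l (0.996 and 0.917) just outside.

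**Figure D1:**
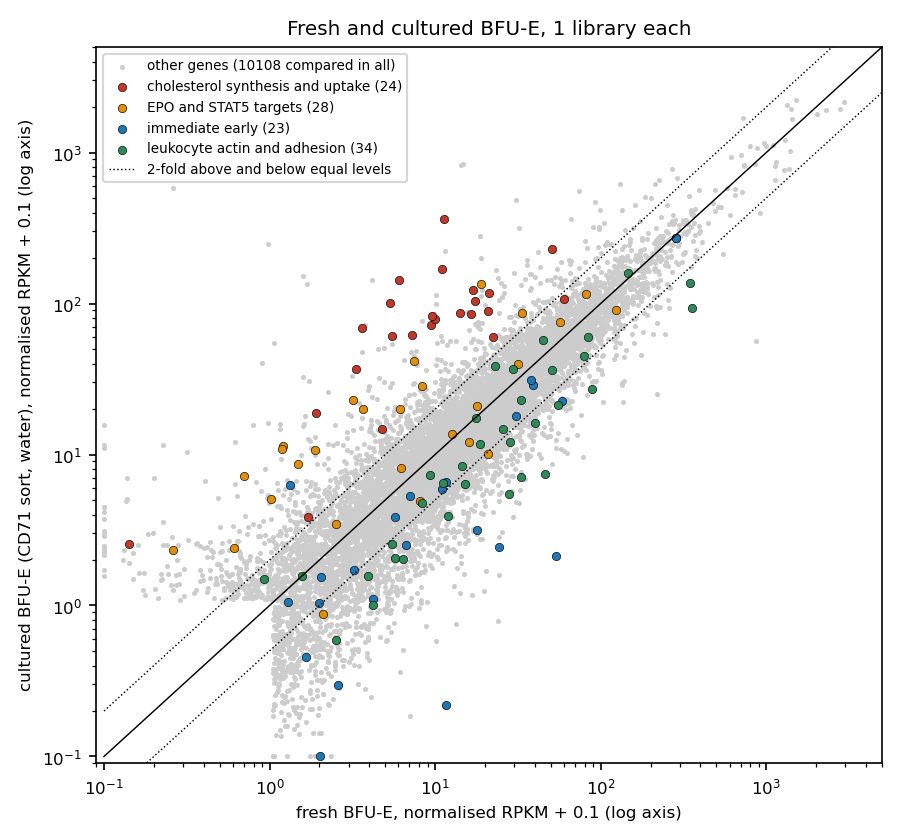
Each point is 1 of 10108 genes, with its level in fresh BFU-E on the x axis and in cultured BFU-E (CD71 sort, water) on the y axis, both as normalised RPKM plus 0.1 on log axes, and the dotted lines are 2-fold from equal levels. The cholesterol genes (red) lie above the upper line except for Srebf2, the EPO and STAT5 targets (orange) are spread from below the middle line to far above it, and the immediate early (blue) and leukocyte (green) genes lie mostly below the middle line.

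The 42 gene lists set the genes into groups. Against a background of 6.24% higher and 9.01% lower, the lists with the largest share of members higher, whatever their size, were cholesterol synthesis and uptake (22 of 24), globins (5 of 6), fatty acid synthesis (10 of 17) and EPO and STAT5 targets (15 of 28). Whatever their size, the lists with the largest share lower were lymphoid, hepatocyte and endothelial markers and LXR and cholesterol efflux, all small lists whose counts are given below. The lists with 20 or more members and the largest share lower were growth factor receptors (11 of 24), leukocyte actin and adhesion (15 of 34), stem and progenitor genes (12 of 30) and immediate early genes (9 of 23). The respiratory chain (0 of 24 either way), mitosis (1 of 30 higher, 0 lower) and glycolysis (1 of 22 higher, 0 lower) differed least by these counts among lists of that size.

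**Figure D2:**
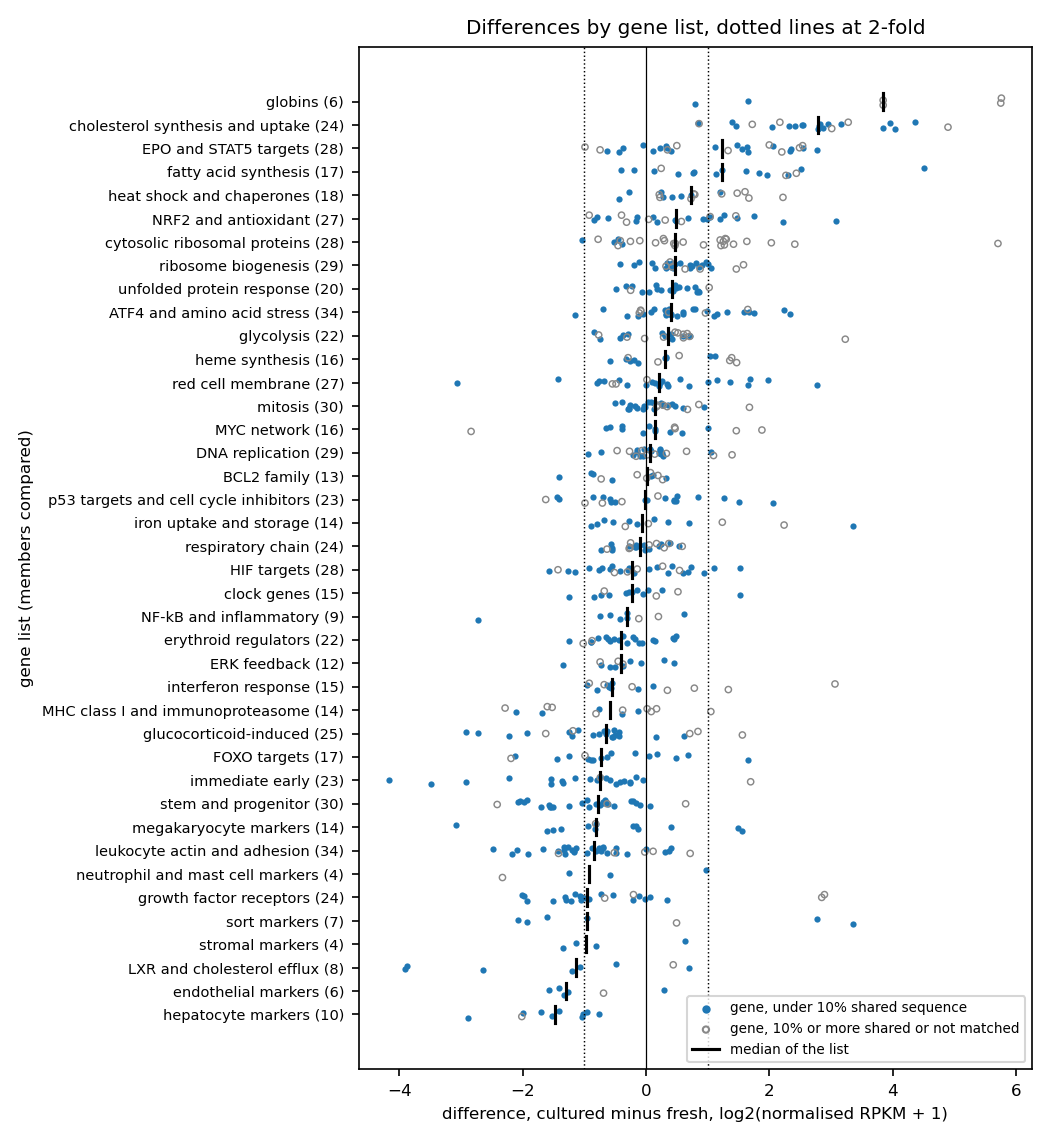
Each point is a gene's difference between cultured and fresh BFU-E on the log2(normalised RPKM + 1) scale (x axis), by gene list (y axis, lists with 4 or more members compared), with filled points for unshared genes, open points for shared or unmatched ones, a bar at each list's median and dotted lines at 2-fold. The list medians run from 3.84 for globins, whose 4 members furthest to the right are shared or unmatched copies, and 2.79 for cholesterol synthesis and uptake to -1.47 for hepatocyte markers.

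Cholesterol synthesis and uptake had the largest share of members called among the lists with 20 or more members. Of 24 members compared 22 were 2-fold higher and 0 lower in cultured BFU-E, with a median of 2.79 beside -0.08 over all genes. Among the 18 unshared members 17 were higher, with the same median of 2.79. The genes lie along the whole pathway. Mvd, which makes the activated isoprene unit, was 5.99 in fresh and 143 in cultured BFU-E, a ratio of 23.9 (20.8 to 27.8). Lss, which folds the linear precursor into the first sterol, was 10.8 and 169, a ratio of 15.6 (14.6 to 16.6). Both genes were low in fresh BFU-E and in fresh CFU-E, where Mvd stood at 5.74 and Lss at 15.6. Over all 6 cultured libraries Mvd ranged from 85.7 to 174 and Lss from 134 to 180.1, so none of the 6 overlapped the levels of fresh BFU-E and CFU-E. The demethylase genes that trim the sterol showed the same order, with Cyp51 at 3.51 and 68.7 and Msmo1 at 5.26 and 101. Their ratios were 19.6 (17.3 to 22.3) and 19.2 (16.7 to 22.3).

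Farnesyl diphosphate synthase, Fdps, had the largest difference on the list at 4.90, from 11.1 to 361, but 85.4% of its sequence is shared and its level is uncertain. The squalene synthase gene Fdft1 was 5.39 and 60.95, with 36.5% shared. A control gene of the same loop stood higher too. Insig1, which holds SREBP in the endoplasmic reticulum when sterol is plentiful and is itself an SREBP target, was 9.91 and 78.3, with 67.3 in the Dex arm and 102 in the separate water culture. The 2 members that were not 2-fold different were Srebf2, which encodes the sterol-regulating SREBP, at 59.6 and 107, and Ggps1, of a side branch, at 1.62 and 3.75 (17.2% shared).

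The upstream sequence of these genes is shown because they stood higher together. RefSeq promoters (300 bases, from 250 before to 50 after the start) were at hand for 17 of the 24 members. The letters CCAAT, the core of the box bound by NF-Y, were found on either strand in 16 of the 17. Of all 27025 gene names with such promoters, 41.1% hold them in any of their promoters. This motif was chosen after the values were seen. The E-box CACGTG was found in 4 of 17 (8.09% of all promoters). For the sterol regulatory element of SREBP only an exact string of letters was searched, and it was found in 0 of 17 (0.0999% of all promoters). Variants of that string were not searched, so the count cannot show whether these promoters hold such an element. None of these motifs contains another, a match is a description and not a binding site, and no match says only that the letters are not in that window. The stretches below run 5′ to 3′ on the gene's strand and come from RefSeq with GRCm38.p6 coordinates, a later build than the mm9 of the files. They are Mvd at chr8:122443430-122443497 (minus strand, CCAAT letters starting 60 and 27 bases before the start), Lss at chr10:76531528-76531562 (plus strand, 62 bases before the start) and Insig1 at chr5:28071181-28071331 (plus strand, CCAAT letters 216 and E-box 101 bases before the start). Capitals mark CCAAT, or ATTGG where it lies on the other strand, and the E-box.
Mvd: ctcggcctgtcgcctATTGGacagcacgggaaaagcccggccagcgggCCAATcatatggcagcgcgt
Lss: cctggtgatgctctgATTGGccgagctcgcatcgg
Insig1: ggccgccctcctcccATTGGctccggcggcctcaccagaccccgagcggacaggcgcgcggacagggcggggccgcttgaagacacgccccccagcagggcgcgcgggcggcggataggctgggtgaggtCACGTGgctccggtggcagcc
Beside these stretches, the 3 genes were 23.9-fold, 15.6-fold and 7.90-fold higher in the cultured library.

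Fatty acid synthesis genes, many of them also SREBP targets, were higher in 10 of 17 members and lower in 0, with a median of 1.22. Among 14 unshared members 8 were higher. The 17 include Mvp, the gene of the major vault protein, which is not a fatty acid gene (14.1 and 16.9, 11.3% shared). Scd1, which puts the double bond into stearate, had the largest difference of any unshared gene compared, on the log2 scale with 1 added, 0.802 against 40.1, a ratio of 49.9 (39.9 to 64.02). Fresh CFU-E held 38.4 of it. Fasn, fatty acid synthase itself, was already abundant in fresh BFU-E at 89.4 and stood at 319 in culture, and Acly, which supplies its acetyl-CoA, was 109 and 256. The chain-lengthening gene Elovl6 was 7.58 and 48.2 and the desaturase gene Fads2 35.7 and 181. Acsl4, which activates long polyunsaturated fatty acids, was 2.82 and 13.9. Acaca, the rate-limiting carboxylase, was 5.35 and 29.6 (59.7% shared), and the NADPH-making malic enzyme gene Me1 0 and 4.42 (42.8% shared). Srebf1, which encodes the SREBP of fatty acid genes, was 58.5 and 50.8, within 2-fold.

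LXR targets and genes of cholesterol efflux lay on the other side, lower in 5 of 8 members and higher in 0, with a median of -1.14. Apoe, a lipid carrier, was 862 in fresh BFU-E and stood at 56.6 in cultured cells, a ratio of 0.0656 (0.0614 to 0.0700). Abcg1, which exports cholesterol to high-density lipoprotein, was 23.8 and 0.692, a ratio of 0.0290 (0.0216 to 0.0388). Over the 6 cultured libraries Apoe ranged from 56.6 to 70.6 and Abcg1 from 0.436 to 1.75, all under the fresh level, and fresh CFU-E had 13.5 and 0.763. Its fellow exporter Abca1 was 1.40 and 0.0400, the lipoprotein gene Apoc1 14.8 and 1.53, and the ubiquitin ligase gene Mylip 4.60 and 1.68. Apoe and Apoc1 are also made by hepatocytes and macrophages. The summed level of 19 hepatocyte markers was 39.9 in fresh and 4.12 in cultured BFU-E and that of 17 macrophage markers 10.8 and 3.82, and their part in the Apoe difference was not tested.

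**Figure D3:**
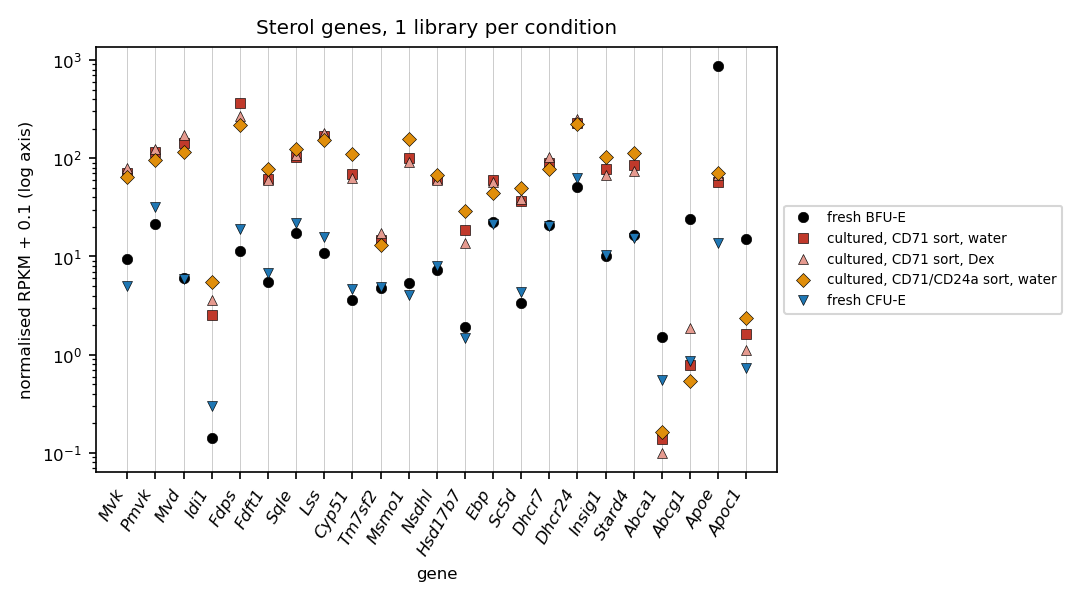
Levels of sterol genes (x axis) as normalised RPKM plus 0.1 on a log axis (y axis) in fresh BFU-E, the cultured library compared, its Dex arm, the separate CD71/CD24a water culture and fresh CFU-E, with 1 library a condition and no error bars. For the synthesis genes the cultured points sit together above the fresh points, as for Mvd at 5.99 and 143, while Abcg1 and Apoe at the right have fresh BFU-E on top.

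EPO and STAT5 targets were higher in 15 of 28 members and lower in 0, with a median of 1.23, and in 10 of 19 among unshared ones. Cish, a feedback inhibitor of STAT5 signalling that EPO induces quickly, was 3.57 and 20.001, with 17.7% shared sequence. Socs3, an inhibitor of JAK2, was 0.162 and 2.22, a ratio of 13.7 (6.58 to 33.03) on 8 and 68 recovered reads. Over the 6 cultured libraries Socs3 ranged from 0.193, near its fresh level, to 2.22, the library compared here. Podxl, a surface sialomucin of progenitors and of stress erythropoiesis, was 18.8 and 134, a ratio of 7.12 (6.78 to 7.48). Podxl ranged from 100.4 to 156 over the 6 cultured libraries, and Cish from 7.73 to 20.001, both above their fresh level. Id1, an inhibitor of helix-loop-helix transcription factors, was 7.34 and 41.5, and Trib3, which ATF4 also controls, 0.597 and 7.05. The cytokine gene Osm was 1.10 and 11.2, but it ranged from 0.472 to 11.2 over the cultured libraries, so the difference was not seen in each of them. Erfe, the hormone by which erythroblasts lower hepcidin, was 1.09 and 10.7 (11.6% shared), and the survival kinase genes Pim2 and Pim1 were 3.10 and 22.8 (11.1% shared) and 33.5 and 85.8 (13.2% shared). The survival gene Bcl2l1 (12.5 and 13.6) and the growth regulator Myc (284 and 273) were within 2-fold.

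The STAT5 letters TTCNNNGAA were found, on either strand, in the promoters of 4 of the 21 members with a RefSeq promoter (Cish, Socs3, Gfi1b and Serpina3g), and in those of 9.55% of all 27025 gene names with promoters. Among the classical feedback genes Socs3 had the lowest fresh level. Stretches are drawn only from the bases before the start, where Cish had no match. The stretch of Socs3 is shown. It lies at chr11:117969497-117969535 (GRCm38.p6, minus strand), and the match in capitals starts 154 bases before the start.
Socs3: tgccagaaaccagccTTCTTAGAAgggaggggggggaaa

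Of the receptor genes for the factors in the medium, Kit was lower in culture, and Epor and Igf1r were within 2-fold. Epor, the EPO receptor gene, was 86.96 and 80.5, a ratio of 0.926 (0.872 to 0.983). Kit, the receptor for stem cell factor, was 175 and 45.4, a ratio of 0.258 (0.248 to 0.269), and Igf1r, the IGF-1 receptor gene, 24.8 and 12.6, a ratio of 0.508 (0.481 to 0.536). Kit stood at 93.02 in the Dex arm, 43.3 in the separate water culture and 83.003 in fresh CFU-E. Of the 24 growth factor and hormone receptors compared 11 were lower and 2 higher, with a median of -0.95. The interferon-gamma receptor gene Ifngr1 was 76.02 and 18.1, and Flt3 3.66 and 0.180. Il3ra, the alpha chain of the interleukin-3 receptor, was 9.74 and 3.36, and the activin receptor gene Acvr1b 8.33 and 2.76. The glucocorticoid receptor gene Nr3c1 was 23.6 and 10.9. The 2 that were higher were the beta chains of the interleukin-3 receptor family, Csf2rb (1.54 and 17.9, 29.4% shared) and Csf2rb2 (0.0995 and 6.92, 30.6% shared), which resemble each other and are uncertain singly.

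Immediate early genes were lower in 9 of 23 members and higher in 1, with a median of -0.75. Jun, a subunit of AP-1, was 53.4 and 2.04, a ratio of 0.0381 (0.0300 to 0.0476). Its partner Fos was 11.5 and 0.118, on 472 and 3 recovered reads, a ratio of 0.0102 (0.00211 to 0.0301). Jun did not exceed 2.04 and Fos did not exceed 0.194 in any of the 6 cultured libraries, while fresh CFU-E had 5.49 and 0.535. Fosb was 1.92 in fresh BFU-E and 0 in the cultured library, on 141 and 0 reads, so that the counting interval of its ratio ends at 0.0428. Dusp1, a phosphatase that switches off MAP kinases, was 24.3 and 2.33. Zfp36, which destabilises AU-rich messages, was 17.9 and 3.07, and the nuclear receptor gene Nr4a1 2.48 and 0.199. Egr1 was 10.9 and 5.83, within 2-fold, and 17.3 in the Dex arm, and Myc too was within 2-fold. Fosl1 was the member that was higher, at 1.23 and 6.22 (60.3% shared). Of 12 genes of feedback on ERK, 1 was lower (the ERK phosphatase gene Dusp6, 2.38 and 0.324) and 0 higher, with a median of -0.41.

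Glucocorticoid-induced genes were lower in 9 of 25 members and higher in 1, with a median of -0.65. Dusp1 and Zfp36 are on this list as well as on the one above. Zfp36l2, an RNA-binding protein that BFU-E need to renew themselves, was 244 in fresh and 62.9 in cultured BFU-E without Dex, a ratio of 0.258 (0.248 to 0.269). In the Dex arm of the same cells it stood at 157, between these levels. The clock gene Per1 was 12.5, 4.67 and 22.5 in the fresh library, the water arm and the Dex arm. The receptor co-chaperone gene Fkbp5, a standard readout of glucocorticoid action, was 32.04, 22.4 and 71.7, and Tsc22d3, which encodes GILZ, 10.8, 7.25 and 19.02. For these 3 genes the fresh level lay between the water and the Dex arm. Nfkbia, the inhibitor of NF-kB, was 25.1 and 2.97, with 7.43 in the Dex arm. The cell cycle inhibitor gene Cdkn1c was 5.11 and 0.978 (28.4% shared), and the member that was higher was Cebpb, 5.46 and 18.1 (19.5% shared).

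Of 30 stem and progenitor genes 12 were lower and 0 higher, with a median of -0.77, and of the 27 unshared ones 11 were lower. Gata2, which acts in stem cells and gives way to Gata1 in erythroid cells, was 82.9 and 24.7, a ratio of 0.298 (0.279 to 0.318). Myb, which keeps progenitors dividing, was 219.9 and 73.8. Fresh CFU-E held 1.26 of Gata2 and 65.7 of Myb. Cd34 was 12.8 and 2.27, the ETS factor gene Erg 6.82 and 0.891, and Sox4 18.6 and 2.67 (54.6% shared). CD34 and CD41 were gated out at the surface in both libraries, and Cd34 and Itga2b (the gene of CD41, 44.05 and 13.8) were nonetheless detected in both.

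Leukocyte genes of the actin cortex and of adhesion were lower in 15 of 34 members and higher in 0, with a median of -0.84, and in 14 of 29 among unshared ones. Vim, an intermediate filament gene, was 355 in fresh and 93.5 in cultured BFU-E, a ratio of 0.263 (0.252 to 0.275), and 1.47 in fresh CFU-E. The actin-binding gene Coro1a was 88.6, 27.1 and 1.28 in these 3 libraries, and the integrin gene Itgal 32.8, 6.95 and 0.288. For all 3 genes the cultured level lay between fresh BFU-E and fresh CFU-E. Selplg, the ligand of selectins, was 45.8 and 7.35, but 12.7 in CFU-E. The class I myosin genes Myo1g and Myo1f were 27.9 and 5.37, and 4.11 and 0.904.

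**Figure D4:**
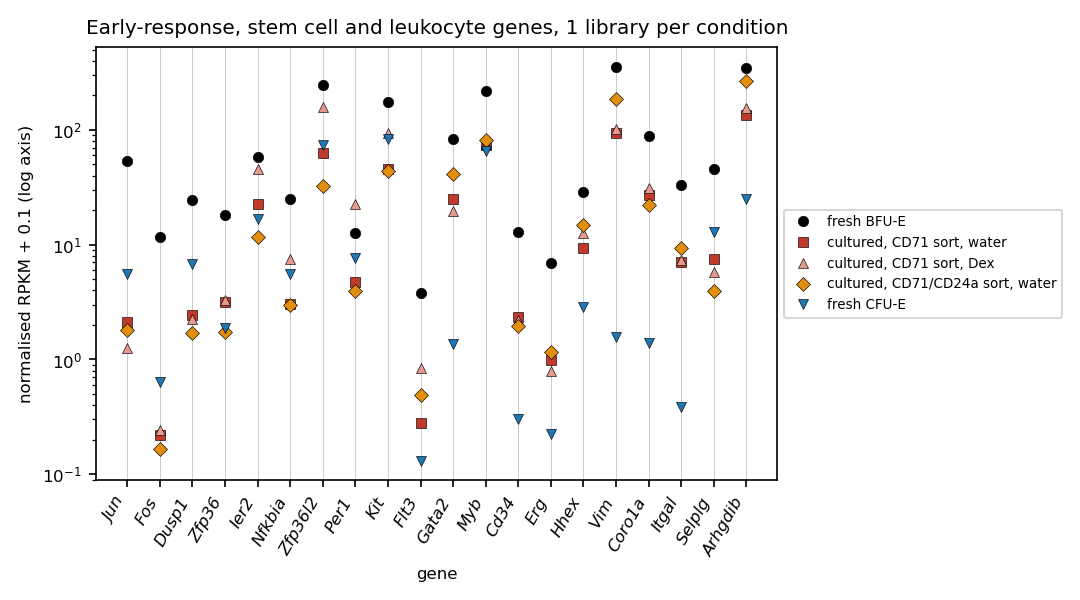
Levels of early-response, progenitor and leukocyte genes (x axis) as normalised RPKM plus 0.1 on a log axis (y axis) in the same 5 libraries, 1 a condition, with no error bars. Fresh BFU-E is the highest point for nearly every gene, with Per1 as an exception through its Dex arm (22.5), and fresh CFU-E lies below the cultured libraries for the leukocyte genes Vim, Coro1a and Itgal but above them for Jun, Fos and Dusp1.

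The summed levels of markers of other cell types were lower in the cultured library too, though not every marker was. In fresh and cultured BFU-E the summed levels were 101 and 29.2 for 20 neutrophil and mast cell markers, 143 and 74.5 for 16 megakaryocyte markers, 121 and 61.6 for 14 endothelial markers, 16.9 and 3.95 for 18 lymphoid markers and 38.1 and 20.6 for 14 stromal markers. Markers at 0 in the cultured library numbered 7 of 20 for neutrophil and mast cells, 6 of 17 for macrophages, 1 of 16 for megakaryocytes, 10 of 19 for hepatocytes, 3 of 14 for endothelium, 7 of 18 for lymphoid cells and 8 of 14 for stroma. In the fresh library they numbered 5, 1, 0, 1, 1, 6 and 5. The cultured library was the shallower, at 11.8 M reads against 18.4 M, and at low levels a shallower library gives more values of 0. The granule enzyme gene Mpo was 71.5 and 13.4 (14.6% shared), Prtn3 24.6 and 9.74, and the macrophage gene Lyz2 4.44 and 1.01 (31.4% shared). Mpo and Prtn3 made up most of the neutrophil and mast cell sum. Egfl7 (73.9 and 45.4) and Eng (29.7 and 10.5) made up most of the endothelial sum, and fresh CFU-E held 47.1 and 23.1 of them. Dlk1 (28.5 and 15.7) made up most of the stromal sum, and Cd79b and Nkg7 most of the lymphoid sum in the fresh library. Of the neutrophil and mast cell list's members at low levels some stood higher, as S100a9 (0.105 and 1.18) and Ms4a3 (0.404 and 0.812), and some lower, as Elane (0.832 and 0.447). Its markers at 1 or more RPKM as deposited numbered 3 in fresh and 4 in cultured BFU-E. On other lists, Fn1 of stroma was 0.553 and 1.41 and Stab1 of endothelium 1.56 and 2.13. Albumin (Alb) was 10.02 and 0.483 and alpha-fetoprotein (Afp) 7.05 and 1.02. The separate water culture held more of both, at 3.95 and 4.34, and fresh CFU-E 3.74 and 2.67. Over the 6 cultured libraries Alb ranged from 0.289 to 3.95 and Afp from 0.920 to 4.58, all under the fresh BFU-E level. The platelet gene Treml1 was 16.6 and 1.08, and Pecam1 of endothelium 6.88 and 2.13. Nkg7 of cytotoxic lymphocytes was 6.34 and 0.404 and Cd79b of B cells 8.14 and 1.58, while Col1a2 of fibroblasts was 5.17 and 1.42. Counts of lower members were 2 of 4 for neutrophil and mast cell markers, 1 of 3 for macrophage, 4 of 14 for megakaryocyte (8 with 0.1 added in place of 1), 8 of 10 for hepatocyte, 4 of 6 for endothelial, 2 of 2 for lymphoid and 2 of 4 for stromal markers. Higher members were found on the megakaryocyte list alone, where Thbs1 was 1.57 and 6.57 and F2rl2 2.15 and 7.90. A marker near 0 in culture passed the filter through its fresh level, which favours a lower call. The part of these cells in the lower stem cell, receptor and leukocyte genes was not tested.

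The red cell genes were mixed. Tfrc, which brings in transferrin-bound iron and encodes the CD71 of the gate, was 18.9 in fresh and 201 in cultured BFU-E, a ratio of 10.7 (10.2 to 11.2). Both libraries began from cells with the least CD71 at the surface, and the cultured level was above that of fresh CFU-E (104), which were gated for the most CD71. Cd24a, by which the separate culture had been gated low, was 23.4 and 165, a ratio of 7.08 (6.57 to 7.65), against 176 in CFU-E and 103 in the separate culture. Of 27 red cell membrane genes 7 were higher and 2 lower, with a median of 0.20. Rhag, of the Rh ammonium channel, was 16.02 and 66.2. The adducin gene Add2 was 31.7 and 83.1, while its partner Add1, found in most cells, was 123 and 45.4. The anion exchanger gene Slc4a1, a late gene of the membrane, was 4.12 and 3.12, within 2-fold, and 11.8 in CFU-E. Aqp1, a water channel of the red cell, was 219 and 25.2, a ratio of 0.115 (0.107 to 0.124), and 198 in CFU-E. For Cd24a and Rhag (99.6 in CFU-E) the cultured level lay between fresh BFU-E and fresh CFU-E, and for Aqp1 it lay below both.

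Genes of heme synthesis, transport and breakdown were higher in 5 of 16 members and lower in 0, with a median of 0.31. Among unshared ones 2 of 10 were higher, Cpox and Hmox1. Hmox1, which breaks heme down, was 1.23 and 3.60, and Flvcr1, which exports heme, 7.69 and 21.3 (18.7% shared). Cpox, of a late step in the mitochondrion, was 140.3 and 306, and Alas2, the erythroid first enzyme, 1.37 and 5.57 (14.4% shared). Of 14 genes of iron uptake and storage 3 were higher, Tfrc and the ferritin genes Fth1 (722 and 1703, 12.4% shared) and Ftl1 (131 and 623, 94.5% shared), and 0 lower, with a median of -0.06. Globin transcripts were higher in 5 of 6 members. Beta-globin Hbb-bt was 14.3 and 822 (58.9% shared) and alpha-globin Hba-a1 18.6 and 281 (70.7% shared), and the separate water culture held 119 and 5.12. The alpha genes Hba-a1 and Hba-a2, and likewise the beta genes Hbb-bt and Hbb-b2, have near-identical values, so the list rests on fewer members than it counts, and the alpha-globin level in the separate culture was under that of fresh BFU-E.

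The transcription factors of the erythroid program differed little beside these genes. Of 22 erythroid regulators 0 were higher and 2 lower, with a median of -0.40. Gata1, the main activator of red cell genes, was 169 and 136, Klf1, which drives beta-globin, 187 and 165, and Tal1 66.8 and 73.9. The 2 lower ones were the ubiquitin ligase gene Trim58 (16.8 and 6.49) and Stat5b (55.5 and 26.9, 16.4% shared).

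**Figure D5:**
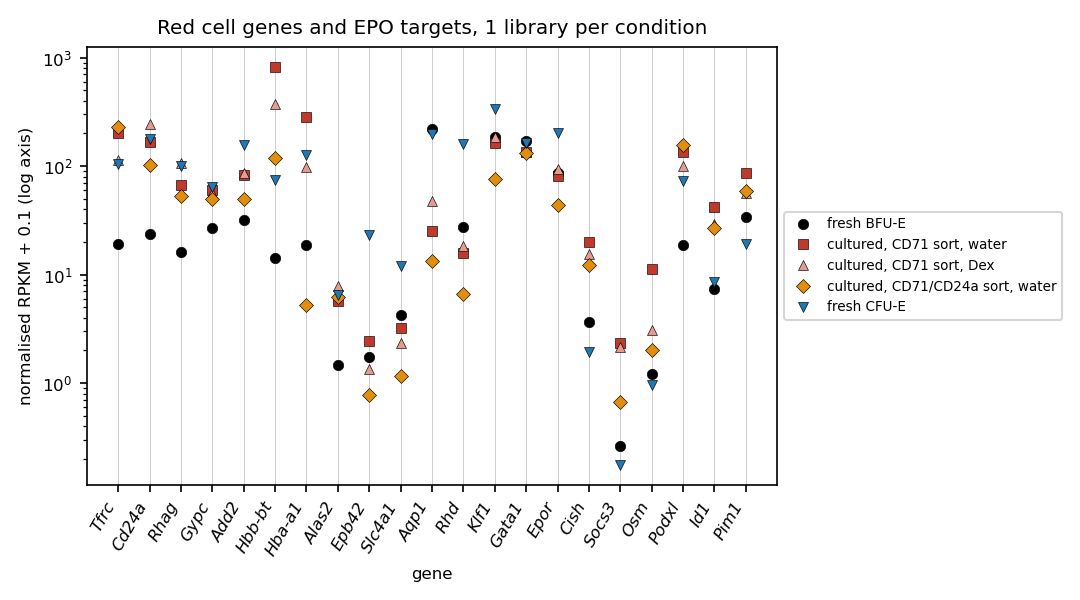
Levels of red cell genes and EPO targets (x axis) as normalised RPKM plus 0.1 on a log axis (y axis) in the same 5 libraries, 1 a condition, with no error bars. The cultured points lie above fresh BFU-E for Tfrc (18.9 and 201), Cd24a, Rhag and Podxl, near it for Gata1 and Epor, and below it for Aqp1 (219 and 25.2).

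Stress pathways of amino acid shortage and oxidation were partly higher. The ATF4 list, genes turned on when amino acids run short or the kinase of heme shortage is active, was higher in 9 of 34 members and lower in 1, with a median of 0.40. Mthfd2, of mitochondrial one-carbon metabolism, was 19.9 and 97.6, a ratio of 4.91 (4.53 to 5.32), and Asns, asparagine synthetase, 46.99 and 143. Atf4 itself was 101 and 217. Slc7a11, which imports cystine, was 0.0387 and 2.48, and the stress gene Nupr1 1.14 and 5.78. The serine synthesis gene Phgdh was 42.8 and 136 (73.6% shared), but ranged from 26.1 to 136 over the 6 cultured libraries. Ddit3, which encodes the pro-death factor CHOP, was 18.3 and 17.2 (13.02% shared), and Ppp1r15a, which reverses the stress arrest of translation, was lower at 26.1 and 11.2.

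The composite letters TGATGCAA, to which ATF4 binds with C/EBP partners, were found on either strand in the promoters of 6 of 27 members with a RefSeq promoter (Chac1, Slc7a11, Slc1a4, Nupr1, Pycr1 and Aars), and in those of 1.03% of all gene names with promoters. The stretches of Slc7a11 and Chac1 show the match in both orientations, while Slc1a4 had no match before the start. Slc7a11 lies at chr3:50443638-50443694 (GRCm38.p6, minus strand) and holds the letters 66 and, reversed, 47 bases before the start. Chac1 lies at chr2:119351034-119351071 (plus strand) and holds them reversed 193 bases before the start. Capitals mark TGATGCAA or its reverse complement.
Slc7a11: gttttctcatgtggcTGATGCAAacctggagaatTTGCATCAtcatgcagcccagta
Chac1: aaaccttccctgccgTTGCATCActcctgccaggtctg
Of these 6 genes Slc7a11, Nupr1 and Slc1a4 (6.76 and 18.3) were 2-fold higher in culture, while Chac1, a glutathione-degrading enzyme, was 0.456 and 1.52, a difference of 0.79 on the log2 scale.

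NRF2 and antioxidant genes were higher in 9 of 27 members and lower in 0, with a median of 0.48, and in 7 of 19 among unshared ones. Srxn1, which repairs overoxidised peroxiredoxins, was 3.04 and 33.1, a ratio of 10.9 (9.26 to 12.9), and ranged from 21.5 to 46.8 over the cultured libraries. The quinone reductase gene Nqo1 was 7.63 and 39.3, the thioredoxin reductase gene Txnrd1 65.5 and 184, and Gclm, of glutathione synthesis, 65.04 and 158. G6pdx, which makes NADPH, was 33.7 and 94.1 (17.1% shared). Nfe2l2, which encodes NRF2, was 36.2 and 32.5. The unfolded protein response was higher in 1 of 20 members (Hsp90b1, 16.7% shared) and lower in 0, with Hspa5, the main chaperone of the endoplasmic reticulum, at 122 and 223. Heat shock genes and chaperones were higher in 6 of 18 members, but in 1 of 8 unshared ones (Chordc1, 10.9 and 26.4). The others were led by Dnaja1 (5.22 and 27.99, 32.9% shared) and Hspd1 (97.8 and 313, 54.7% shared).

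Growth and metabolism lists held mostly genes within 2-fold. Myc was 284 and 273, a ratio of 0.961 (0.934 to 0.988), and of 16 genes of its network 3 were higher and 1 lower (median 0.15). Odc1, of polyamine synthesis, was 39.9 and 149.6 (51.2% shared), and Mxd4, an antagonist of Myc, 14.1 and 1.12 (13.5% shared). Ribosome biogenesis was higher in 4 of 29 members and lower in 0, with a median of 0.47. The nucleolin gene Ncl was 157 and 316, Noc4l 69.8 and 146, and Npm1 162 and 448 (45.1% shared). Of 28 cytosolic ribosomal protein genes 11 were higher and 1 lower, but 24 of the 28 are shared or unmatched, and of the 4 unshared ones 0 were higher and 1 lower (Rpl22, 198 and 95.6). Glycolysis was higher in 1 of 22 members, the Pgam1 named above, in which the library stood apart, and lower in 0 (median 0.35). HIF targets were higher in 2 of 28 and lower in 4 (median -0.23), with the oxygen sensor gene Egln3 at 7.96 and 2.02 and the glycogen synthase gene Gys1 at 11.2 and 4.11. Bhlhe40, a transcriptional repressor that is also a clock gene, was 0.180 and 2.40, and Ero1a, of disulfide formation, 6.07 and 14.1. Respiratory chain genes were within 2-fold in 24 of 24 (median -0.10).

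Cell cycle and survival genes showed single differences. DNA replication was higher in 3 of 29 members and lower in 0 (median 0.07), with the cyclin gene Ccne1 at 25.9 and 55.03 and Rrm2, of nucleotide synthesis, at 48.2 and 104 (15.3% shared). Mitosis was higher in 1 of 30 (Ccnb1, 10.5 and 35.9, 46.8% shared) and lower in 0 (median 0.15). Of 23 p53 targets and cell cycle inhibitors 3 were higher and 3 lower (6 lower with 0.1 added in place of 1, median -0.02). Cdkn1a, which encodes p21, was 1.79 and 10.6, a ratio of 5.91 (4.47 to 7.82), while Cdkn1b, which encodes p27, was 7.64 and 2.19, a ratio of 0.286 (0.215 to 0.375). FOXO targets, among them Cdkn1b, were lower in 4 of 17 members (7 with 0.1 added) and higher in 1 (median -0.73). Pik3ip1, an inhibitor of PI3 kinase, was 4.01 and 0.147, Txnip, which restrains glucose uptake, 53.8 and 11.001 (19.7% shared), and the member that was higher was Irs2, an adaptor of the insulin and IGF-1 receptors (8.26 and 28.2). Irs2 ranged from 7.28 to 28.2 over the 6 cultured libraries, so it was not higher in each of them. Of 13 BCL2 family genes 1 was lower, the pro-death gene Bbc3 (6.22 and 1.71), and 0 higher, and Mcl1 was 31.6 and 39.6.

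Genes of antigen presentation were lower in 5 of 14 members and higher in 1, with a median of -0.58, and among 5 unshared ones 2 were lower and 0 higher. The peptide transporter gene Tap1 was 24.2 and 4.86 and the immunoproteasome gene Psmb8 45.6 and 13.4. Psmb9 and Tap2 were 17.8 and 2.85 (13.9% shared) and 45.4 and 15.1 (15.6% shared), and the class I heavy chain gene H2-K1 was higher at 67.1 and 140.0 (22.4% shared). Interferon response genes were higher in 2 of 15, Ifitm1 (8.29 and 76.7, 16.4% shared) and Ifitm3 (32.5 and 83.6, 18.5% shared), and lower in 0, with a median of -0.56. Of the 8 unshared ones 0 were higher, and with 0.1 added in place of 1, 4 of the 15 were lower. Of 9 NF-kB and inflammatory genes 1 was lower, the Nfkbia given above. Of 15 clock genes Bhlhe40 was higher and Per1 lower.

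Among the 15 unshared genes with the largest upward and the 15 with the largest downward difference, several are on none of the gene lists. Cda, cytidine deaminase, was 0.126 in fresh and 11.5 in cultured BFU-E, on 2 and 117 recovered reads, a ratio of 90.95 (25.5 to 788), and ranged from 4.42 to 11.5 over the 6 cultured libraries. Arhgdig, a GDP-dissociation inhibitor of small GTPases, was 1.63 and 30.5, and 40.6 in fresh CFU-E. Cpd, a carboxypeptidase of the secretory path, was 3.50 and 47.8, and Aacs, which feeds ketone bodies into lipid synthesis, 9.96 and 99.2. The small nucleolar RNA gene Snord82 was 0 and 10.9, on 0 and 9 reads, at least 4.93-fold higher against the level of 3 reads in the fresh library. On the lower side, Ramp1, a partner of the calcitonin-like receptor, was 24.3 and 1.48, and Gm2a, of ganglioside breakdown, 13.3 and 0.659. Nrgn, a calmodulin-binding protein, was 77.6 and 9.60, Trib2, a pseudokinase, 24.2 and 2.76, and Smim24 19.5 and 1.14. Ypel3 was 6.91 and 0.0862, on 131 and 1 reads, a ratio of 0.0125 (0.000309 to 0.0698).

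Transcripts at 5 or more RPKM in one library and 3 or fewer reads in the other numbered 9, and Fos, Ypel3, Cda and Snord82 were among them. Tmem254a (0 and 11.4, 100.0% shared), the histone gene H2ac24 (0 and 15.7, 92.9% shared) and Nanp (0.0372 and 6.94, 56.6% shared) were also at or near 0 in the Dex arm and in the separate water culture, and all 3 are among the genes in which the cultured library stood apart. The short RNA genes Snord73b (2.16 and 11.6) and Rnu7 (12.7 and 3.11, 100.0% shared) rest on 3 and 10 and on 15 and 2 reads.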

How the data were processed

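The deposited values of the 2 libraries compared, and of the 7 others, are RPKM computed by the authors over 23041 RefSeq transcript records on mm9, per the submitters' processing notes and the file headers. Per the labels' protocols, the RNA was sequenced from both ends of fragments cut out of gels at 300 bp, with an Illumina mRNA kit. The aligner, the counting tool, the use of strand and the handling of reads with several matches are not given in the sources used here, so reads of antisense or overlapping genes cannot be told apart. An exact 1 in the 4 CD71/CD24a files, which hold no 0, was read as 0. Symbols came from a RefSeq table of GRCm38 (22393 records) and from GENCODE (118), 530 records had none, and the record with the highest mean stood for each name. Levels were divided by median-ratio factors over 6888 genes that reached 1 RPKM in each of the 9 libraries. Depth came from the steps of low RPKM values with transcript lengths of GRCm38: 68.1% of low values in either library were whole reads within 0.1 reads, against 20% by chance. Sequence sharing is the percentage of the 32-base words of a transcript (1 in 4 sampled) that a pseudogene or the transcripts of other genes hold too. Intervals are Clopper-Pearson, conditional on the summed reads, and PCR copies are not independent molecules. Python 3.11.15, pandas 2.3.3 and scipy 1.17.1 were used, and the scripts were tested on simulated data. Named genes are the 15 farthest each way among unshared genes whose whole interval lies past 2-fold, up to 6 members of a list each way and those a reader would look for first, and genes at 5 or more RPKM in one library with 3 or fewer reads in the other. The members, lists and tests were chosen with earlier results of these data known. No test was made, since each condition has 1 library. Scaling, the pseudocount, filters, the choice of record, intervals and shared sequence were varied.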

Additional observations from a re-analysis of the deposited data

How the results depend on the processing

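No paired analysis was possible because each condition has 1 library, and for the same reason no replicate could be left out. With a pseudocount of 0.1 in place of 1, 1369 genes were lower in the cultured library instead of 911 (868 higher instead of 631). With genes under 10% shared sequence 281 were higher (748 lower) of 7454 compared, and the cause was not tested. Under the other settings the count of higher genes ranged from 524 (whole interval past 2-fold) to 710 (factors from the 2 libraries, 803 lower) and that of lower genes from 673 (genes at 5 or more RPKM) to 1002 (no factor, 585 higher). The share of higher genes among those called was 36.9% with no factor and 46.9% with factors from the 2 libraries, whose medians over all genes were -0.13 and -0.03. Leaving out the 27 genes in which the library stood apart, a setting chosen after seeing the data, gave 604 and 911. The list members called in either direction numbered 222, and 153 to 271 under the alternatives. Of 840 counts of list members recomputed under these settings 780 were within 1.5 times the reported one and 60 were not. The 780 include counts that could not move. With no filter or a filter on normalised RPKM no call can change, since genes under 1 RPKM in both libraries cannot reach 2-fold with 1 added. Counts of 0 that stayed at 0 are among the 780 as well. With the pseudocount of 0.1 lower members became more numerous for interferon response (0 to 4), EPO and STAT5 targets (0 to 2), NRF2 (0 to 2), ERK feedback, NF-kB and BCL2 family genes (each 1 to 3), p53 targets (3 to 6), FOXO targets (4 to 7) and megakaryocyte markers (4 to 8). Among unshared genes higher members numbered 0 instead of 2 for interferon response and for growth factor receptors. Among the named unshared genes with the largest upward and downward differences, none changed sign in the settings where its difference was recomputed. The sign of the other named differences was not checked. For genes at low levels the depth limits what can be seen: 3 reads on 1 kb were 0.254 RPKM in the cultured library.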
